A study of Drosophila melanogaster with 8 samples.

Results

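Dam-RNase H1 contacts were followed at 9 genes of the fly response to oxidative stress, out of 9826 genes that the deposited gene tables place beside a peak and 17673 annotated on the 6 chromosome arms. They were chosen by symbol: *cnc*, *Keap1*, *GstD1*, *GstD2*, *GstE6*, *GstE7*, *Sesn*, *ref(2)P* and *Gadd45*. In Targeted DamID a DNA adenine methylase (Dam), fused to a protein and expressed at a low level, methylates GATC sites near the DNA that the protein contacts. RNase H1 binds RNA:DNA hybrids, so the assay maps contacts of Dam-RNase H1 and gives no RNA level.

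The wing discs came from larvae of the third instar that carried the temperature-sensitive allele ecd1 (genotype nub>Dam-RNase H1; ecd1, 3 libraries, and nub>Dam; ecd1, 1 library) and from control larvae (nub>Dam-RNase H1, 3 libraries, and nub>Dam, 1 library). For the nub>Dam; ecd1 library the labels disagree, the description naming Dam-RNase H1 and the title and genotype Dam alone; it was grouped by genotype. All groups carried UAS-LT3 constructs held off by heat-sensitive tub-Gal80 at 25 °C, and all spent 24 h at 29 °C from day 6 after egg laying, so the control discs had the same heat treatment. Dam was expressed where the driver *nub* is active, in the wing primordium of the disc, while ecd1 is an allele carried by the whole animal. *ecd* acts in ecdysone synthesis and in splicing.

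CncC, a protein of the *cnc* gene and the fly counterpart of mammalian Nrf2, is held in check by Keap1, an adaptor that directs it to degradation. Oxidants and electrophiles release CncC, which with the small Maf protein encoded by *maf-S* activates detoxification genes such as the glutathione S-transferase gene *GstD1*. A reporter of the sequence beside *GstD1* is a common read-out of this activity in larval tissues. Sestrin, encoded by *Sesn*, restrains TOR signalling through AMPK, *ref(2)P* encodes the autophagy receptor p62, and *Gadd45* encodes a stress-inducible protein whose mammalian relatives act on stress kinases.

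Each genotype has a single peak list and each direction of change a single table, in which a gene appears with 1 region. No value belongs to a single library, so there are no replicate errors, no test between genotypes could be made here, and depth is unknown. A height is a score by the authors whose scale is not given. The ecd1 list has 9559 peaks with a median height of 1.10, and the control list has 8597 with a median of 0.88. At the 1801 peaks with the same ends in both lists the median difference, ecd1 minus control, was 0.28 (quartiles 0.09 and 0.53). Member peaks with identical ends are read against these. Where other member differences are compared, the genes or overlapping peak pairs used are named with them. All 6 wing marker genes examined (*nub*, *vg*, *sd*, *rn*, *wg*, *ap*) had a peak over the gene in each genotype, and so had 10 of 14 markers of other tissues in ecd1 and 6 of 14 in control, where 41.9% of all annotated genes had one in ecd1 and 40.4% in control. By tissue, a peak lay over 3 of 3 haemocyte genes in ecd1 and 1 of 3 in control, over 2 of 2 tracheal genes in ecd1 and 1 of 2 in control, and over the glial gene *repo* in ecd1 and not in control. Neuronal and myoblast genes had 2 of 3 each in both genotypes, and the fat body genes *Fbp1* and *Lsp2* had none in either. A part of other tissues in the results was not tested.

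Dam-RNase H1 contacted the neighbourhood of every one of the 9 genes in both genotypes. A peak lay within 2000 bp of the gene for 9 of 9 in ecd1, where 60.6% of annotated genes had one, and for 9 of 9 in control, where 57.7% had one. A peak overlapped the gene itself for 8 of 9 in each genotype (all but *ref(2)P*), against 41.9% of annotated genes in ecd1 and 40.4% in control. Because the genes were chosen with earlier results of these data known, these counts describe them and test nothing. The gene tables list 7 of the 9 for each genotype: *GstD2* is in neither table, *Gadd45* is missing from the ecd1 table and *GstE6* from the control table. In each of these cases a peak of that genotype covered the whole gene. The tables hold 8754 genes for ecd1 (49.5% of the number annotated) and 8284 for control (46.9%).

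The listed heights ran between 0.72 and 2.33 in ecd1 (median 1.47) and between 0.74 and 1.41 in control (median 1.02). Of the 6 genes listed in both tables, 5 had the greater height in ecd1, as did 79.7% of the 7212 genes that both tables hold. *Sesn* differed most, by 1.31, more than 98.4% of those genes. *GstD1* followed with 0.58, *Keap1* with 0.50, *ref(2)P* with 0.34 and *cnc* with 0.13, the last below the median of 0.28 for all such genes. The *Keap1* value sets a broad ecd1 peak against 1 of the 3 control peaks that it overlaps. Against the tallest of these, of 1.28 and outside the gene, the ecd1 peak differed by 0.19. For *GstE7* the difference was -0.02, between different peaks.

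**Figure D1:**
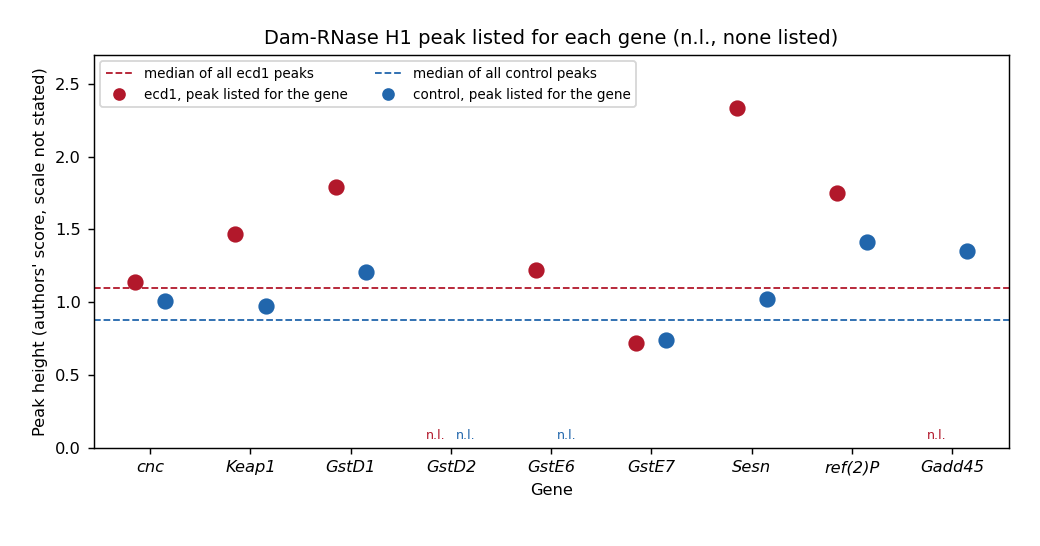
Height of the Dam-RNase H1 peak that the authors' gene tables list for each gene, with ecd1 on the left of each pair and control on the right; 1 point is 1 pooled value and dashed lines are medians of the whole lists (1.10 for ecd1 and 0.88 for control). *Sesn* has the widest gap (2.33 in ecd1 and 1.02 in control), and n.l. marks a gene that is not listed.

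Most of the genes carried a region that the authors called higher in ecd1. Among the 8 in either gene table, 7 had one in the authors' deposited table, where 57.1% of all 9826 genes with a listed peak did. *GstD2*, outside that set, had one too, so that only *GstE7* of the 9 had none. A region higher in control was listed for 1 of the 8, *cnc*, against 22.1% of all genes, so that 1 of the 8 held both directions, against 12.3%. With a height of at least 1, regions higher in ecd1 remained for 4 of the 8 (*GstD1*, *Keap1*, *Sesn*, *Gadd45*), against 12.4%. With *GstD2* counted, 8 of the 9 genes had a region higher in ecd1, and these rest on 7 distinct regions, because *GstD1* and *GstD2* share one. Counted per gene, their heights had a median of 1.08 in the authors' deposited table, against 0.75 over all genes with such a region. A region's height need not equal the difference of the listed peaks: for *GstD1* the authors' deposited table has 1.72 and the peaks differ by 0.58. With annotated genes in place of the authors' assignment, such a region overlapped 5 of the 9 genes (23.6% of annotated genes) and lay within 2000 bp of 9 of 9 (40.7%). A region higher in control overlapped 1 of 9 (9.62% of annotated genes) and lay within 2000 bp of that 1 alone (17.0%). The genes differ in length between 734 bp for *GstD2* and 41132 bp for *cnc*, which was not accounted for in these shares. Because of how the genes were chosen, with earlier results of these data known, these counts and heights also describe them and test nothing.

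**Figure D2:**
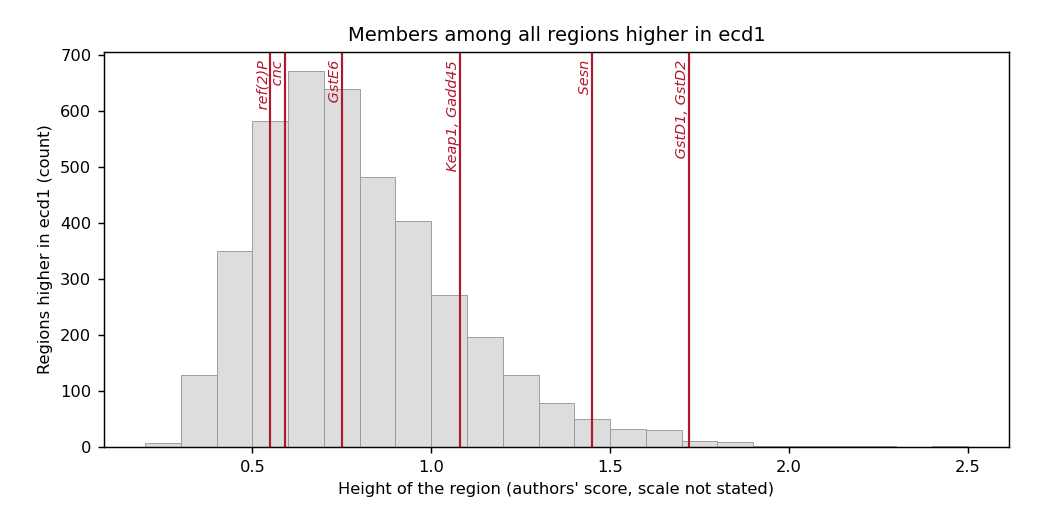
Histogram of the heights of the 4083 regions higher in ecd1 (x axis, authors' score; y axis, number of regions in bins of 0.1), with a line for each region listed for the genes described. *GstD1* and *GstD2* share the line at 1.72, *Keap1* and *Gadd45* lie at 1.08, and *cnc* (0.59) and *ref(2)P* (0.55) lie below the median of 0.74.

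The regulators of the pathway differed from one another, with small differences at *cnc* and a larger one at *Keap1*. *cnc* (FBgn0262975, 3R:23185580-23226711) had 3 ecd1 peaks over the gene, with heights of 1.14, 0.71 and 0.56, and 2 control peaks of 1.01 and 0.67. The tallest (3R:23189404-23191303 in ecd1 and 3R:23189323-23190952 in control) lay near the left end of the gene and differed by 0.13. The peak of 0.56 (3R:23217982-23218728) had no counterpart in the control list. Within it lay a stretch higher in ecd1, which the authors' deposited table puts at 0.59 (3R:23218191-23218728, FDR 7e-05). A height of 0.59 was above only 24.9% of the regions higher in ecd1. Another stretch of *cnc* was higher in control, and the authors' deposited table puts it at 0.39 (3R:23192627-23193060, FDR 0.00798). It overlapped no called peak, the nearest control peak being 1675 bp away. The gene thus held both directions at sites far apart.

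*Keap1* (FBgn0038475, 3R:17073942-17079945) lay partly under 1 broad ecd1 peak of height 1.47 (3R:17077110-17083415). Peaks covered 47.2% of the gene in ecd1 and 45.7% in control, so its covered share was similar. In control discs the same stretch held 3 peaks, one of 0.97 inside *Keap1* (3R:17076913-17079653) and others of 1.28 and 0.37 beyond it. The ecd1 peak spans 6306 bp and was wider than 97.9% of ecd1 peaks. It reaches into *kuk*, a neighbouring gene for a nuclear envelope protein, for which it is listed as well. Only 26 ecd1 peaks (0.272%) overlapped 3 or more control peaks. In the authors' deposited table a region inside *Keap1* was higher in ecd1 with a height of 1.08 (3R:17077923-17078642, FDR 0.00058), above 85.4% of such regions. A neighbouring one of 1.18, listed for *kuk* in the authors' deposited table, covered the 1046 bp between the control peaks of 1.28 and 0.37.

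*maf-S*, which completes the list of the Nrf2 and Keap1 switch, had a peak of 0.77 in ecd1 (2R:20640808-20642199). In control it had one of 1.11 (2R:20640409-20641292), and these intervals overlap only in part. The authors' deposited tables give *maf-S* a region of 0.49 higher in ecd1, 567 bp outside the gene, and one of 0.63 higher in control at the gene. Of these 3 regulators, 3 had a region higher in ecd1, against 57.1% of all genes with a listed peak, and 2 had one higher in control as well, against 12.3% with both directions.

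**Figure D3:**
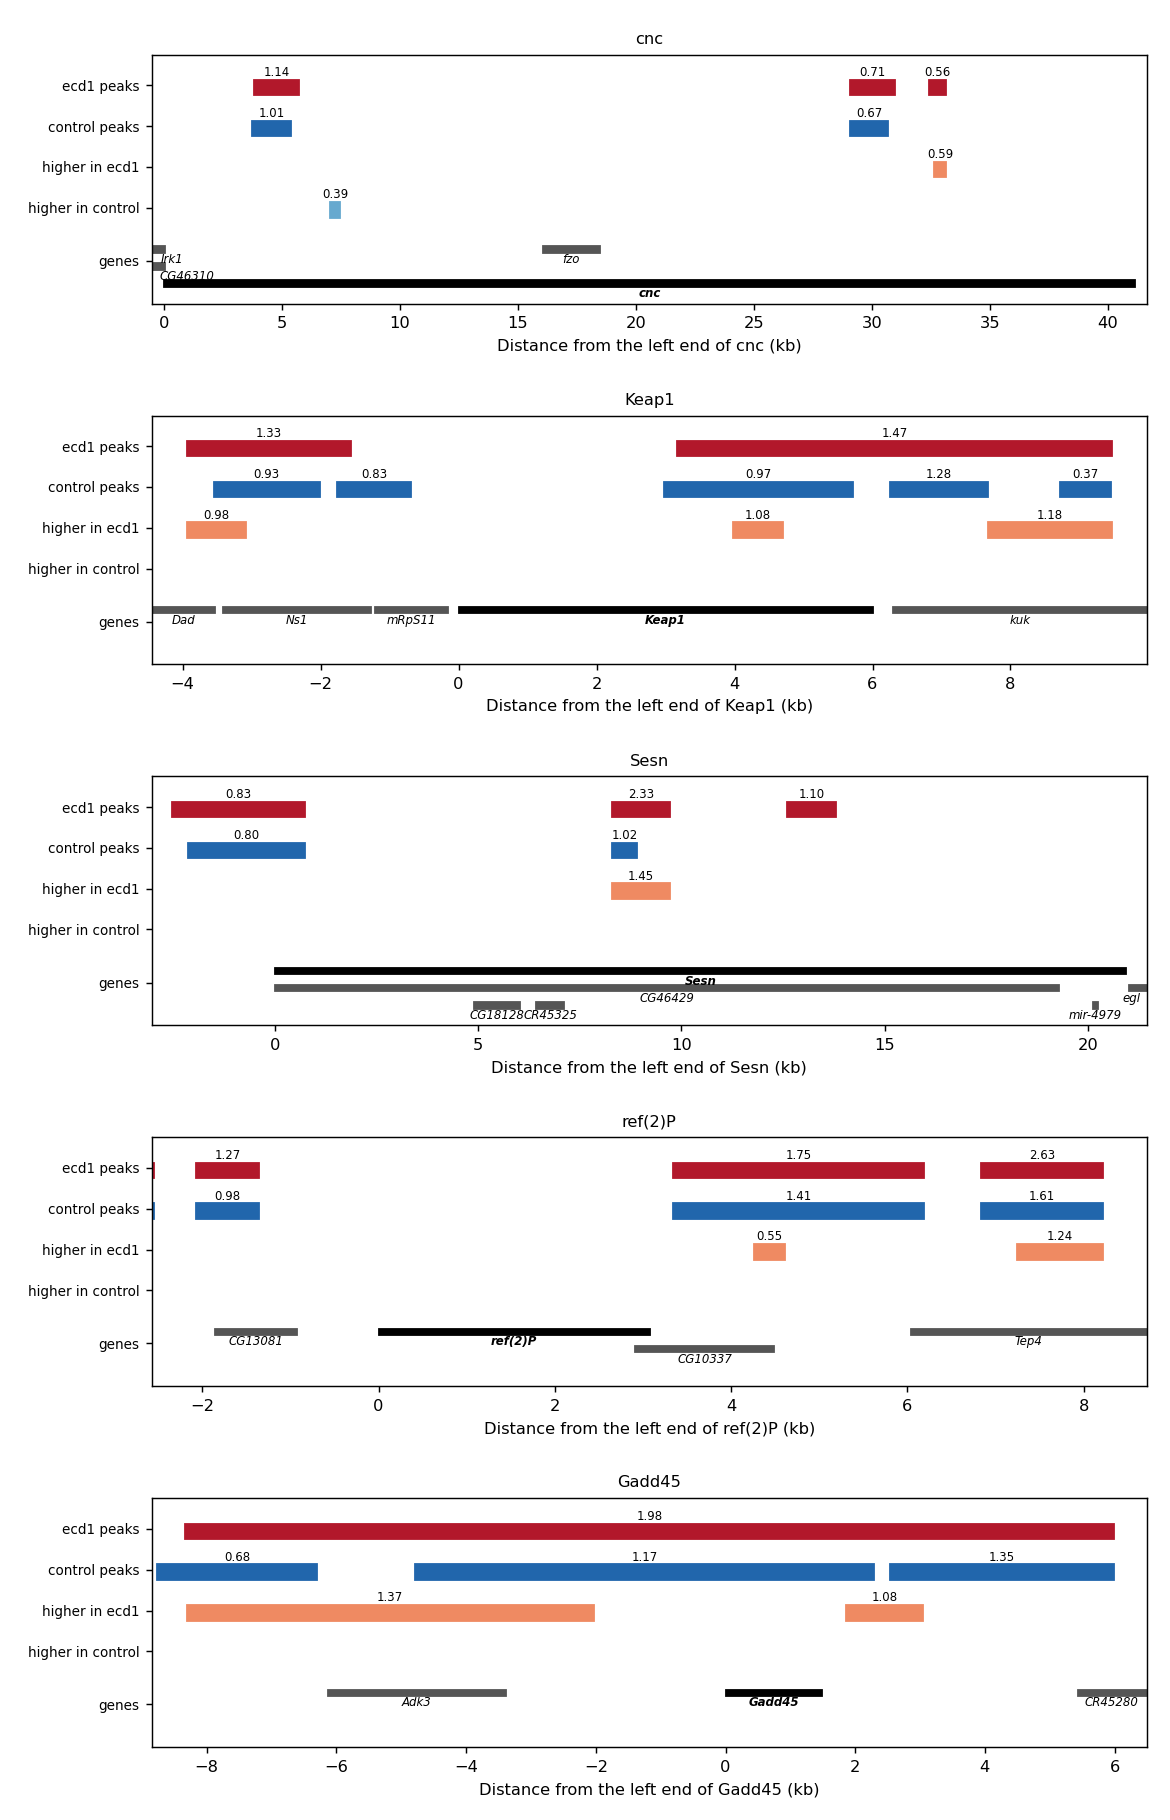
Maps of *cnc*, *Keap1*, *Sesn*, *ref(2)P* and *Gadd45* in kb from the left end of the gene, with ecd1 peaks, control peaks, regions higher in ecd1, regions higher in control and genes from top to bottom; numbers are heights. The ecd1 peaks at *Keap1* (1.47) and *Gadd45* (1.98) each run over 3 control peaks, the *Sesn* peak of 2.33 is longer than its control counterpart of 1.02, and those beside *ref(2)P* have the same ends in both lists.

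The GstD cluster held the tallest differing region of the 9 genes. Glutathione S-transferases join glutathione to electrophiles, and the 11 *GstD* genes stand side by side (3R:12364776-12385624). A stretch higher in ecd1, which the authors' deposited table puts at 1.72 (3R:12370285-12371171, FDR listed as 0), ranked 27 of the 4083. It lies between *GstD1* (FBgn0001149, 3R:12367817-12369268) and *GstD2* (FBgn0010038, 3R:12371971-12372704), 1017 bp from the one and 800 bp from the other, over the non-coding gene *CR46015*. It is listed for all 3 of these genes, so their values are 1 measurement.

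The peak around it, listed for *GstD1*, *GstD4* and *CR46015*, had a height of 1.79 in ecd1 (3R:12369650-12374717) and 1.21 in control (3R:12370285-12374717). Both share the right end, and the ecd1 peak began 635 bp nearer to *GstD1*, at 382 bp from it. The difference of 0.58 was larger than that of 79.9% of the 5497 ecd1 and control peak pairs that overlap by at least 50% of each. This peak covers all of *GstD2*, which no gene table lists. *GstD1* itself lay outside the peak that is listed for it, whereas 72.0% of the genes of the ecd1 table that were matched by symbol overlapped theirs.

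Over *GstD1* the lists have a smaller peak. Its height was 1.36 in ecd1 (3R:12368051-12368522) and 0.83 in control (3R:12368051-12368961), so that it was taller and 439 bp shorter in ecd1. A second region higher in ecd1, of 0.60 in the authors' deposited table (3R:12372254-12373217), ran from *GstD2* into *GstD3*, for which it is listed. The right part of the cluster looked different. A control peak of 0.52 over *GstD6* and *GstD7* had no ecd1 counterpart, although no region there was called higher in control. No peak overlapped *GstD5*, *GstD8* or *GstD11* in either genotype, although one lay within 2000 bp of *GstD5* in both and of *GstD8* in control. Peaks covered 31.5% of the cluster in ecd1 and 38.1% in control.

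The GstE cluster (2R:18396638-18409835, 10 genes) differed in both directions over short distances. Peaks covered 60.8% of it in ecd1 and 82.0% in control, with 7 ecd1 peaks of heights between 0.72 and 1.69 and 5 control peaks between 0.70 and 1.75. *GstE6* (FBgn0063494, 2R:18406011-18406761) lay mostly under an ecd1 peak of 1.22 (2R:18405186-18406594), which covered 77.8% of it. In control it lay wholly under a longer and lower peak of 0.74 (2R:18403540-18407220), which the control table lists for *GstE7* and *GstE4*. That control peak corresponds to 2 ecd1 peaks, of 1.12 and 1.22, set 60 bp apart. The authors' deposited table gives regions higher in ecd1 of 0.75 at *GstE6* (2R:18405967-18406594, FDR 0.0007) and of 1.02 at *GstE5* and *GstE4* (2R:18404589-18405045). At the left end of the same control peak a stretch listed for *GstE4* was higher in control, at 0.45 in the authors' deposited table (2R:18403540-18403807).

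*GstE7* (FBgn0063493, 2R:18406924-18407688) is next to *GstE6* and showed no called difference of its own. Its listed peaks were different intervals, one of 0.72 in ecd1 (2R:18407244-18409020) and the control peak of 0.74 shared with *GstE6*. At the site of the ecd1 peak the control list has 0.70 (2R:18407273-18409718), a difference of 0.02. The region of 0.75 at *GstE6* was 330 bp away. The *GstD* and *GstE* genes are tandem copies of related sequence, and how reads that match several copies were counted is not given in the sources used here, so the values of single copies are uncertain.

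**Figure D4:**
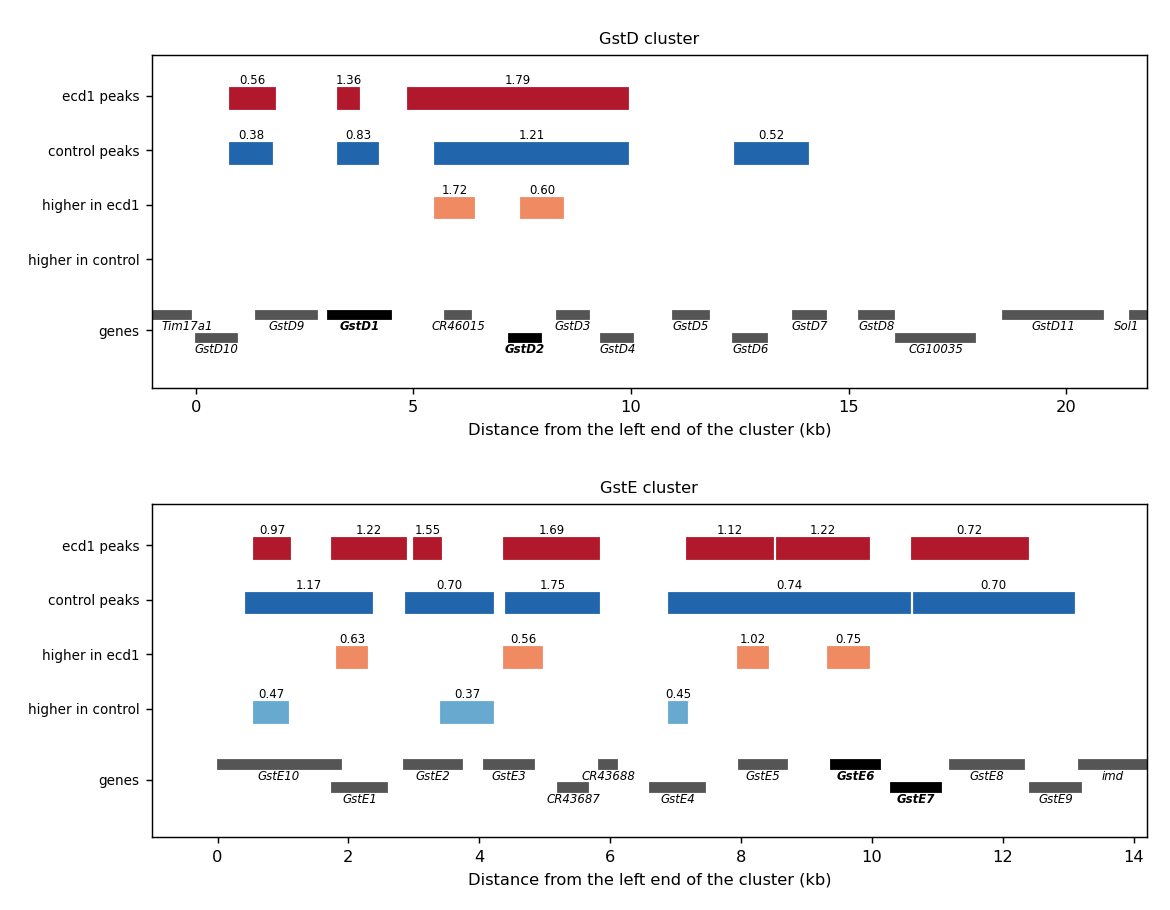
Maps of the GstD and GstE clusters in kb from their left ends, with tracks as in the maps of single genes and the 4 genes described in bold. In the GstD cluster the region of 1.72 lies between *GstD1* and *GstD2* and no region is higher in control, while in the GstE cluster 4 regions higher in ecd1 (0.56 to 1.02) are interspersed with 3 higher in control (0.37 to 0.47).

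*Sesn* (FBgn0034897, 2R:23713900-23734846) had the tallest listed ecd1 peak of the 9 genes. Its height was 2.33 in ecd1 (2R:23722190-23723612) and 1.02 in control (2R:23722190-23722808). The ecd1 peak ranked 288 of 9559. Both begin at the same base, and the ecd1 peak ran 804 bp further. The authors' deposited table gives the whole ecd1 interval as higher in ecd1 with a height of 1.45 (FDR listed as 0), above 97.1% of such regions. The peak lies within *Sesn* and within *CG46429*, which shares its left end, and it is also listed for *CG18128* and *CR45325*, both nested in *Sesn*. A further ecd1 peak inside *Sesn*, of 1.10 (2R:23726488-23727711), had no counterpart in control. At the left end of the gene the peaks differed little, with 0.83 in ecd1 and 0.80 in control. Peaks covered 16.2% of *Sesn* in ecd1 and 6.49% in control.

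*Gadd45* (FBgn0033153, 2R:7249161-7250655) was enclosed by one of the broadest peaks of the ecd1 list. This peak (2R:7240819-7255154) had a height of 1.98 and a width of 14336 bp, rank 5 by width among 9559. In control the stretch held 3 peaks, of 0.68, 1.17 and 1.35, the middle one of which (2R:7244377-7251458) covers *Gadd45*. The ecd1 table lists the broad peak for *Ady43A* (*Adk3* in RefSeq) and *CR45280* and not for *Gadd45*, and the control table lists the peak of 1.35 (2R:7251700-7255154), 1045 bp outside the gene. In the authors' deposited table a region 360 bp outside *Gadd45* was higher in ecd1 with a height of 1.08 (2R:7251015-7252206, FDR listed as 0). This region bridged the 242 bp between the control peaks of 1.17 and 1.35. The wider gap of 1514 bp on the other side lay under a region of 1.37, listed for *Ady43A* in the authors' deposited table.

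*ref(2)P* (FBgn0003231, 2L:19542468-19545548) was the only one of the 9 with no peak over the gene in either list. Its listed peak, 263 bp outside it (2L:19545811-19548652), lies over *CG10337* and the left end of *Tep4*. It had the same ends in both lists, with heights of 1.75 in ecd1 and 1.41 in control. The difference of 0.34 was larger than that of 56.8% of peaks with identical ends. Within it the authors' deposited table has 0.55 for a stretch higher in ecd1 (2L:19546726-19547078, FDR 0.00097), 1178 bp from *ref(2)P*. The next peak, 652 bp on, lies in *Tep4*, a gene for a complement-like protein, and differed more. It had 2.63 in ecd1 and 1.61 in control, a difference larger than that of 96.6% of peaks with identical ends, and a region in it had 1.24 in the authors' deposited table (2L:19549712-19550681).

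Peaks near the listed ones fill in this picture. The 9 genes have 7 distinct listed peaks in ecd1 and 7 in control, and within 2000 bp of those lay 5 further ecd1 and 7 further control peaks. They include the peaks over *GstD1*, over *Gadd45* and at *Tep4* given above. None was near the listed peaks of *cnc* and *Sesn*. The listed ecd1 and control peaks overlapped for 5 of the 6 genes in both tables, all but *GstE7*.

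Genes that act beside these 9 were looked at in lists by role. Counts refer to genes with a listed peak and are read against 57.1% for regions higher in ecd1 and 22.1% for regions higher in control. Over all lists, 101 genes were matched and 84 had a listed peak, with a region higher in ecd1 for 57 (67.9%) and one higher in control for 16 (19.0%). Leaving out the 9 genes, the counts were 50 of 76 (65.8%) and 15 of 76 (19.7%).

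Glutathione S-transferases had regions higher in ecd1 in 1 of 6 *GstD* genes with a listed peak (*GstD1*; *GstD2* and *GstD3* have such a region without a listed peak), in 9 of 14 *GstE* genes and in 6 of 9 genes of other classes. Outside the GstD cluster the greatest heights in the authors' deposited table were 1.31 for *GstT4*, 1.29 for *GstZ1* and *GstZ2*, which share a region, and 1.03 for *GstE9*, from a region 2324 bp outside that gene. On the control side 4 of 14 *GstE* genes had regions, with 0.47 for *GstE10*, 0.45 for *GstE4* and 0.37 for *GstE2* and *GstE3* in the authors' deposited table, as did *GstZ1* with 0.38.

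Among 10 genes for the removal of superoxide and peroxides, 7 had a region higher in ecd1 and 3 one higher in control. The authors' deposited table gives 0.93 for *Jafrac2*, a peroxiredoxin gene, 0.86 for *Sod3*, which encodes an extracellular superoxide dismutase, and 0.86 for the mitochondrial peroxiredoxin gene *Prx3*. *Jafrac2* also had a region higher in control, of 1.04 in the authors' deposited table, as had *Prx2540-1* (0.59) and *Prx2540-2* (0.39). The *Jafrac2* regions of 0.93 and 1.04 lay 1508 bp and 468 bp outside the gene. The *Prx2540-1* region of 0.59 lay 1179 bp outside its gene. The superoxide dismutase gene *Sod1* was in none of the tables.

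Among 11 genes for the supply of glutathione, thioredoxin and NADPH, 7 had a region higher in ecd1. *Gclc*, which encodes the catalytic subunit of the enzyme that limits glutathione synthesis, had an ecd1 peak of 1.56 and no control peak over the gene, and its region higher in ecd1 had 1.56 as well in the authors' deposited table. The FDR of that *Gclc* peak was 0.00835, near the greatest of the ecd1 list (0.00962), and that of the region was 0.00016. Next in height were the regions of *Pgd* (1.30) and *Zw* (0.67), genes of the NADPH-forming steps of the pentose phosphate pathway, in the authors' deposited table. On the control side this list had *Trx-2* alone, a thioredoxin gene, at 0.34 in the authors' deposited table.

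In the list of sestrin, growth arrest, TOR and AMPK genes, 11 of 11 genes with a listed peak had a region higher in ecd1, among them *Sesn* and *Gadd45*, and 2 of 11 one higher in control. Without those 2 genes the count was 9 of 9, with a median height of 0.86. The authors' deposited table gives 1.64 for *foxo*, a transcription factor gene that regulates *Sesn* in flies, 1.44 for *SNF4Agamma*, which encodes the gamma subunit of AMPK, and 1.22 for *Lkb1*, the gene of its upstream kinase. The *Lkb1* region lay outside the peak listed for that gene, which had 0.72 in ecd1 and 0.75 in control. No ecd1 peak over *Lkb1* was taller than 0.72. *foxo* and *SNF4Agamma* also had regions higher in control, of 0.85 and 0.36 in the authors' deposited table. The share in this list exceeded that of all genes, but genes are not replicates and no test was made. Gene length was not accounted for here either. The regions listed for *gig* and *Gadd45* lay 654 bp and 360 bp outside the genes, which no region higher in ecd1 overlapped. The region listed for *p53* lay 1158 bp outside that gene, although another region higher in ecd1 overlapped it.

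**Figure D5:**
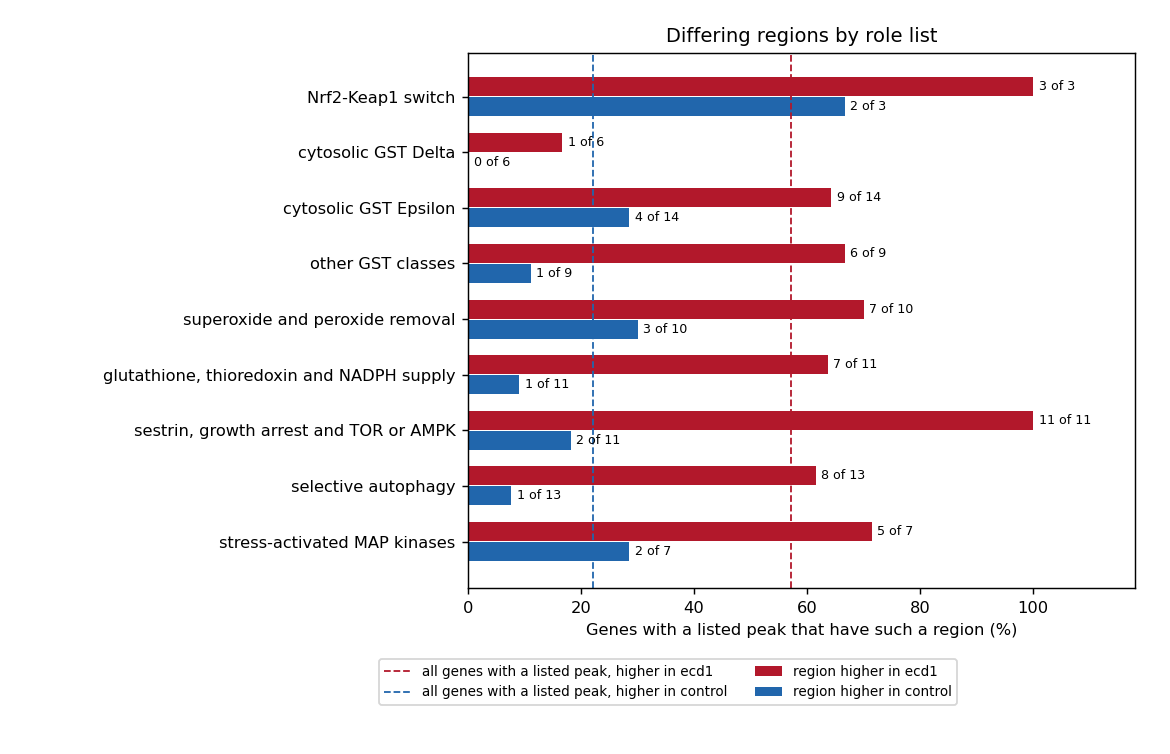
Percentage of genes with a listed peak that have a region higher in ecd1 (upper bar) or higher in control (lower bar) in each role list, with counts beside the bars and dashed lines at 57.1% and 22.1% for all 9826 genes. The list with *Sesn* and *Gadd45* reaches 11 of 11 for ecd1, and the *GstD* list has 1 of 6.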

How the data were processed

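Peaks were deposited as 1 list per genotype, with 1 peak per gene in a table for each; regions that differ between genotypes were deposited as the authors' own comparison. Heights, as the authors deposited them, are a score, and the FDR deposited by the authors is a q-value that lies under 0.01 for every peak and region. The build is BDGP6, per the submitters' processing notes; aligner, peak caller, and use of replicates and Dam-only libraries are not given in the labels used here. Genes were placed with a RefSeq gene table of Release 6 plus ISO1 MT, without strand or exons. Overlap means at least 1 bp, and distance is counted between facing ends. At the 138 regions higher in ecd1 that are peaks with the same ends in both lists, subtracting one peak height from the other gave the deposited height to within 0.01. The 9 genes and 9 role lists were chosen with earlier results of these data known. All 9 genes are named; each list adds up to 3 genes with the greatest height per direction, the genes that share a peak or region with a member and those its peak overlaps; *Gclc* and a few neighbours are further described by their peaks. *GstO4* and *Tor* found no match in RefSeq. Python 3.11.15 and pandas 2.3.3 were used; interval code was tested on simulated data.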

Additional observations from a re-analysis of the deposited data

How the results depend on the processing

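No paired analysis was possible because every deposited value stands for a whole genotype, and for the same reason no library could be left out. Of the 9 genes, 8 had a region higher in ecd1, and 5 did when a height of at least 1 was required (*cnc*, *GstE6* and *ref(2)P* dropped out). With any region counted, whichever gene it is listed for, 5 genes had one overlapping them and 9 within 2000 bp. No such region overlapped *GstD1*, *GstE7*, *ref(2)P* or *Gadd45*. *GstD2* was overlapped only by the region of 0.60 listed for *GstD3*, its own lying 800 bp outside it. *GstE7* was within 2000 bp only of regions listed for other *GstE* genes. The 1 gene with a region higher in control, *cnc*, became 0 with an FDR under 0.001, with a height of at least 1 and on called control peaks. The 12 further peaks near the listed ones became 5 at overlap and 28 within 5000 bp. Listed ecd1 and control peaks overlapped for 5 genes, and for 3 with a reciprocal overlap of 50%. Over the role lists, the 59 genes with a region higher in ecd1 became 22 with a height of at least 1; the 16 higher in control became 1 with a height of at least 1 and 6 with an FDR under 0.001. Counts of genes with a listed peak (7 per genotype) stayed between 5 and 9. The remaining alternatives stayed within 1.5 times. The unknown depth and the missing replicate values limit every height given.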

Other observations

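The role lists not yet described were close to the background of 57.1% of genes with a region higher in ecd1 or above it. Of 13 selective autophagy genes with a listed peak, 8 had such a region, *ref(2)P* included, and 1 had a region higher in control. The authors' deposited table gives 1.63 for *Atg5*, 1.21 for *Atg8a*, the ubiquitin-like protein gene that marks autophagosomes, and 1.09 for *Atg6*. *Atg8a* and *Atg6* had ecd1 peaks of 1.66 and 1.74 that overlapped an end of the gene and ran beyond it. No control peak overlapped either gene, although one lay within 2000 bp of *Atg6*. The gene with a region higher in control was *Atg7*, at 0.51 in the authors' deposited table, beside 0.85 higher in ecd1.

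Of 7 stress-activated MAP kinase pathway genes with a listed peak, 5 had a region higher in ecd1 and 2 one higher in control. The authors' deposited table gives 1.27 for *Atf-2*, from a region 1027 bp outside the gene, 1.10 for the p38 kinase gene *p38c* and 0.98 for *Tak1*. The kinase gene *Mekk1* had regions in each direction, of 0.91 higher in ecd1 and 0.77 higher in control in the authors' deposited tables, and *Tak1* one of 0.55 higher in control.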
